A study of Mus musculus with 44 samples.

Results

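Macrophages grown from mouse bone marrow were compared with microglia from newborn mice, each as they stood in culture before the cytokine TGFb1 was added. The comparison used the 4 libraries of time 0 in the culture table, 2 of macrophages and 2 of microglia, out of 23 culture libraries and 44 libraries in the whole series, and all 12335 genes of that table. All mice were C57BL/6. The macrophages were cultured with M-CSF, the growth factor that drives monocyte precursors into macrophages, and the microglia were taken out of a primary culture of newborn glia. The labels do not say which part of the newborn nervous system was used, whether the microglia received M-CSF, or whether the 2 libraries of a cell type came from separate mice or dishes. The p-values therefore rest on the spread among libraries, which may be technical. The treatment label of TGFb1 at 100 ng/ml stands on every culture library, those of time 0 included, and these were read as the untreated start of the time course. The other 19 culture libraries, 9 of macrophages and 10 of microglia at 1, 3, 6, 16 or 20 h under TGFb1, and 16 of the 21 libraries of monocytes and microglia sorted from the cord of mice with a contusion injury of 200 kdyn served as further readings of the same genes. Per the series' design text, the study followed monocyte-derived macrophages and microglia after spinal cord injury and, in culture, under TGFb1.

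Macrophages and microglia belong to the same branch of the immune system. Both depend on the receptor Csf1r and the transcription factor PU.1, and both engulf debris and present or secrete immune signals. They differ in origin: microglia arise from yolk sac precursors that settle in the brain before birth and renew themselves there, whereas bone marrow macrophages come from blood-forming stem cells by way of monocytes. In the brain, TGFb1 is known to hold microglia in their resting state, in which they express genes such as P2ry12, Tmem119, Cx3cr1 and Sall1, and cultured microglia are known to lose much of that expression.

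The deposited value is a signal per gene, scaled per library by the authors. Of the low values, 88.0 to 89.8% in these 4 libraries were whole multiples of 1 step per library (tolerance 0.05 of a step), and that step was taken as the worth of a read. No value is 0, and a value of exactly 1 was read as standing where no read was counted. The estimated depth was 1.59e+06 and 1.40e+06 reads in the macrophage libraries and 2.25e+06 and 1.75e+06 in the microglia libraries, so that a single read was worth 0.725 to 1.22 signal units. Across genes, Pearson's r was 0.968 between the 2 macrophage libraries, 0.973 between the 2 microglia libraries and 0.734 to 0.745 between libraries of different cell types, where genes are not independent replicates. The share of genes listed at 1 was 10.1% and 9.91% in macrophages and 1.39% and 1.65% in microglia, although the upper quartiles of the signal were alike in all 4 libraries, at 102 to 103. The macrophage and microglia columns carry different library letters in their headers, so cell type and library set cannot be told apart. In bulk RNA, fewer cells of a type and less RNA per cell cannot be told apart either, which holds for every result that follows. Values are given as the first and the second library of a cell type, with the cell type named first given first.

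Of the 12335 genes, 6301 (51.1%) differed between macrophages and microglia at 0 h at an adjusted p under 0.05 (limma on log2(signal + 1), Benjamini-Hochberg over all genes). The difference favoured macrophages in 2648 genes (21.5%) and microglia in 3653 (29.6%). With so many genes called, a list of genes is read here against these shares, which count all genes, neural genes included. The median log2 difference of macrophages minus microglia over all genes was -0.13, and the median standard error of a gene's log2 difference was 0.30. Rescaling moved that median to 0.01 (median of ratios), 0.03 (quantile normalization) or -0.28 (totals without the neural list genes), so that differences of this size depend on the scaling. The last setting took out all members of the 3 neural lists, Apoe included, and set the remaining totals equal. Its shift was not divided between neural genes, Apoe and the equal totals. Large differences were common in both directions: 571 of the genes higher in macrophages and 1459 of those higher in microglia differed at least 4-fold on the fitted log2(signal + 1) scale, genes at 1 included. They were asymmetric at the bottom of the range. Both macrophage libraries were listed at 1 in 894 of the genes higher in microglia, while both microglia libraries were listed at 1 in 75 of the genes higher in macrophages. For genes so listed, values are given without a fold.

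**Figure D1:**
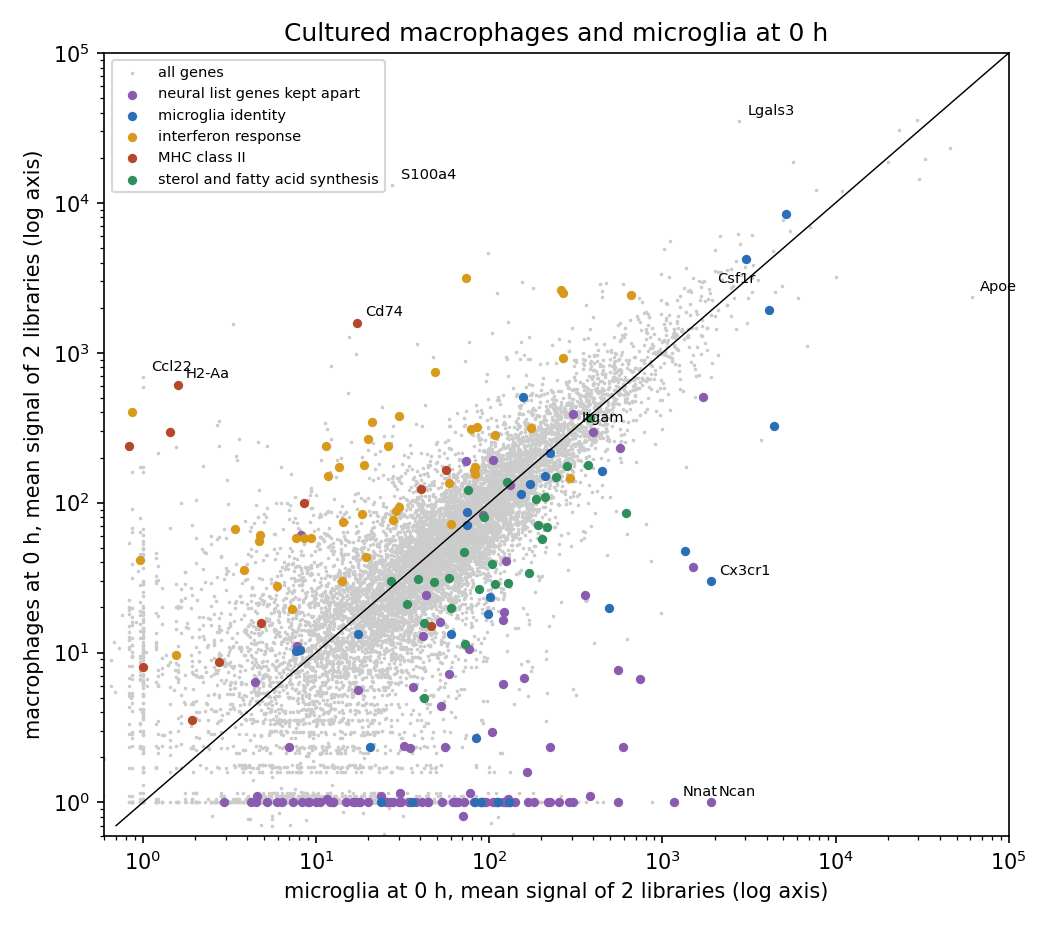
Mean signal of the 2 microglia libraries (x axis, log) against that of the 2 macrophage libraries (y axis, log) at 0 h, 1 point per gene, with 5 gene lists in colour and the line of equal signal. The neural list genes kept apart lie along the bottom right, many of them at 1 in macrophages, and the MHC class II genes, S100a4 and Ccl22 lie at the upper left.

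**Figure D2:**
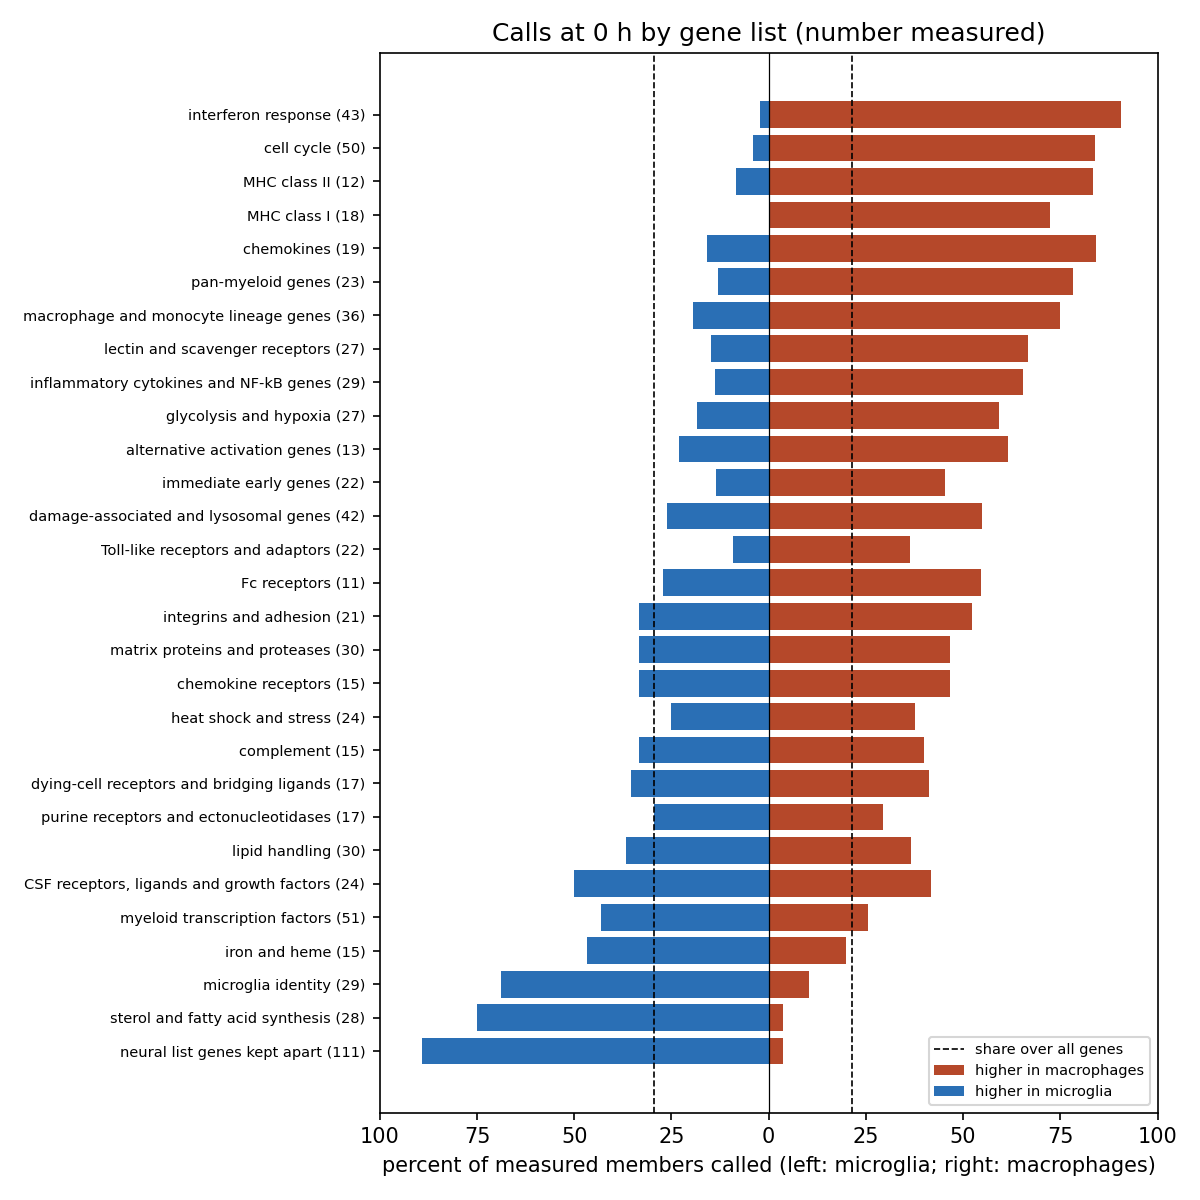
Percent of the measured members of each list that were called at 0 h, higher in macrophages (right) or in microglia (left), with the share over all genes as dashed lines (21.5% and 29.6%). By the gap between the 2 shares of a list, interferon response, cell cycle, MHC class II and MHC class I genes lean furthest to macrophages. Neural, sterol synthesis and microglia identity genes lean furthest to microglia.

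Both cultures expressed the genes that define the myeloid lineage, which does not tell one cell type from the other. Csf1r, the receptor for M-CSF, read 2804 and 2521 in the macrophage libraries and 2012 and 1703 in the microglia libraries. Itgam, which encodes the integrin chain CD11b, read 318 and 314 against 337 and 272 and did not pass the test (log2 difference 0.06 ± 0.11 SE, adjusted p = 0.662, limma). Emr1, the gene of the F4/80 antigen, read 870.0 and 1008 against 794 and 830.1, a gap of 0.21 on the log2 scale. Cd68, a lysosomal glycoprotein of phagocytes, read 2764 and 2766 against 1674 and 1667. Of the 23 pan-myeloid genes measured, 18 were higher in macrophages and 3 in microglia, but most by little: the median log2 difference of the list was 0.38, and quantile normalization left 8 against 6. Sfpi1, which encodes PU.1, read 871 and 896 in macrophages and 432 and 403 in microglia. Psap and Lamp1, both lysosomal, and Ctss, a cathepsin of antigen-presenting cells, were also higher in macrophages, with log2 differences of 0.66, 0.62 and 0.90. Mpeg1, a pore-forming protein of macrophages, was slightly higher in microglia, at 2307 and 2356 against 2608 and 2549.8. The other pair of genes higher in microglia differed by more. Aif1, the gene of the microglia and macrophage marker Iba1, read 73.2 and 71 in macrophages and 832 and 774 in microglia (log2 difference -3.46, adjusted p = 3.46e-15, limma). Cybb, the catalytic subunit of the phagocyte oxidase, read 730.1 and 821 against 1635 and 1455. Small gaps depend on the scaling: with quantile normalization the log2 difference was -0.08 for Emr1, -0.13 for Itgam and -0.04 for Psap, and the calls for Csf1r and Mpeg1 were each lost under other settings.

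Genes of microglial identity stood higher in the microglia as a list. Of 29 measured, 20 were higher in microglia (69.0%, against 29.6% over all genes) and 3 in macrophages, with a list median of -2.04. Cx3cr1, the receptor for the neuronal chemokine fractalkine, read 1992 and 1816 in microglia and 27.9 and 31.8 in macrophages (log2 difference -5.95 ± 0.09 SE, adjusted p = 1.09e-20, limma). Fcrls, an Fc receptor-like gene, read 1299 and 1399.6 against 51.4 and 44.1. Both genes had clear reads in macrophages too. Olfml3, a secreted matrix protein, read 478 and 499 in microglia against 27.3 and 12.2. The genes most closely tied to resting microglia in the brain had reads in both microglia libraries and almost none in macrophages. Tmem119, a surface protein of resting microglia, read 23.2 and 24.1 in microglia and 1 in both macrophage libraries. P2ry12, the ADP receptor that steers microglial processes, read 21.8 and 19.5 against 1 and 3.67, and Gpr34, a lysophospholipid receptor, 82.7 and 84.4 against 4.37 and 1. Sall1, a zinc-finger factor that maintains microglial identity, read 34.1 and 37.1 in microglia and 1 in both macrophage libraries (adjusted p = 3.3e-09, limma). For each of these genes, both microglia libraries lay above both macrophage libraries. Sparc, a secreted matrix protein that is also made by other glia, read 78.3 and 102 against 1 in both macrophage libraries.

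In all, 3 members of the identity list were higher in macrophages. Trem2, the lipid-sensing receptor of phagocytes, read 4136 and 4292 in macrophages and 3042 and 3062 in microglia. Cst3, the protease inhibitor cystatin C, read 8322 and 8532 against 5304 and 5114, and Selplg, the ligand of P-selectin, 478 and 537 against 151 and 163. All 3 are also made by macrophages outside the brain. The other 6 members, P2ry13, Ltc4s, P2rx7, Bhlhe41, Entpd1 and Cd33, did not pass the test; they are named after their values were seen.

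**Figure D3:**
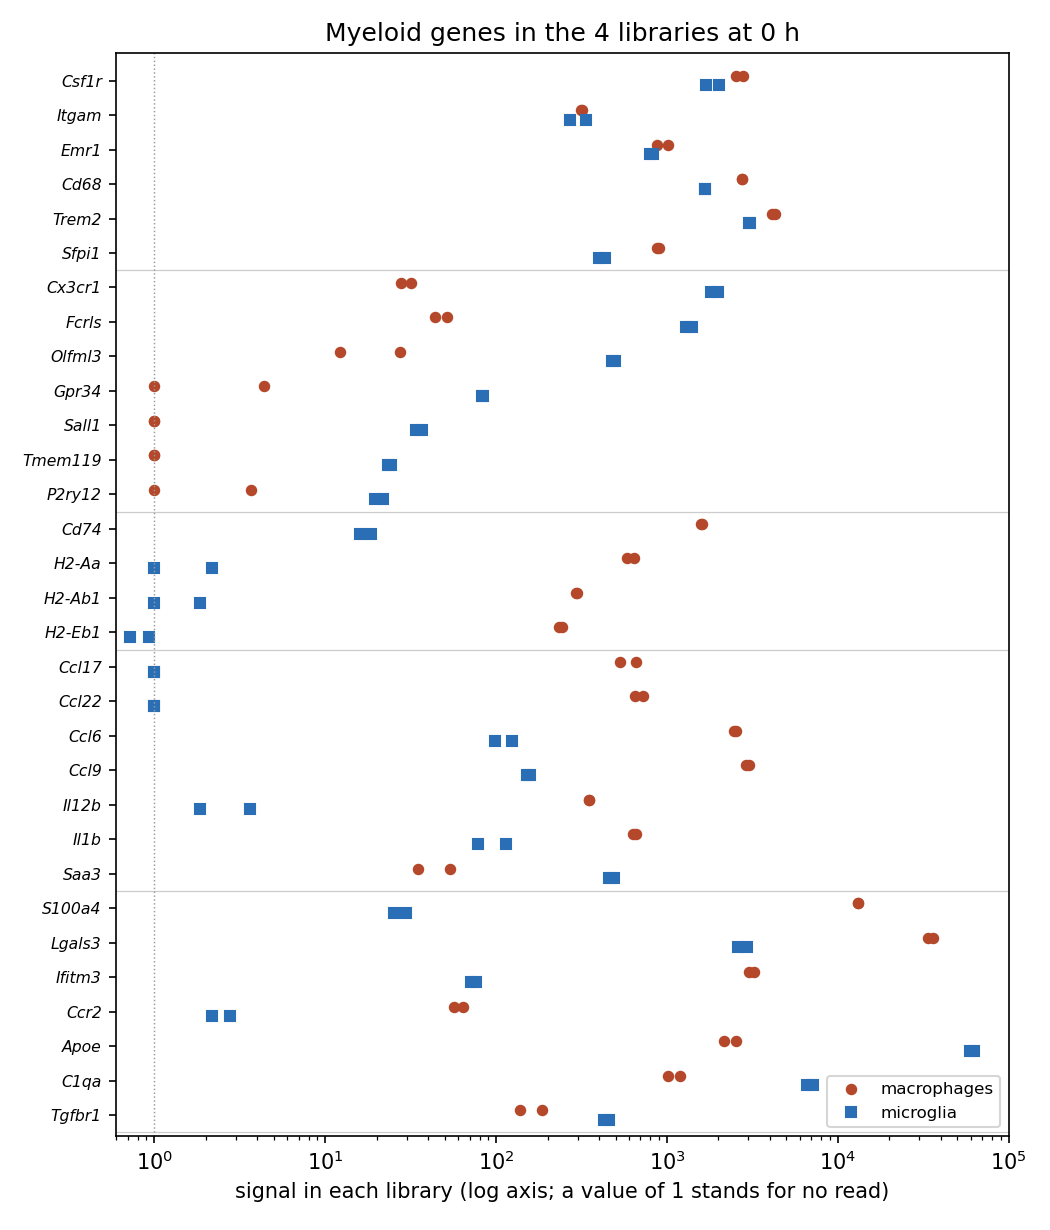
Signal of 31 myeloid genes in each of the 4 libraries at 0 h (x axis, log; circles are the 2 macrophage libraries and squares the 2 microglia libraries), in blocks for pan-myeloid genes, microglia identity, MHC class II, chemokines and cytokines, and other genes. The libraries of a cell type lie close together, and the cell types overlap in Itgam only.

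Both chains of the TGFb1 receptor were higher in the microglia at time 0. Tgfbr1 read 461 and 430.4 in microglia and 187 and 138 in macrophages, and Tgfbr2, its partner chain, 292 and 297 against 84.2 and 133. Smad7, an inhibitor of the pathway that the pathway itself induces, read 103 and 82.5 against 6.56 and 12.2 (log2 difference -3.22, adjusted p = 1.93e-09, limma). Id1, an inhibitor of helix-loop-helix factors, read 389.5 and 428 against 74.3 and 95.5. Both microglia libraries lay above both macrophage libraries in these 4 genes. Other genes of the pathway or induced by it did not follow: Tgfb1 itself, the receptor partner Eng and the matrix genes Tgfbi and Thbs1 were higher in macrophages, by 0.89, 2.63, 1.88 and 1.12 on the log2 scale, and Id2 did not pass the test. These 5 were picked after their values were seen. Since the microglia came out of a glial culture, and since neural list genes were also higher in them, the source cell of these transcripts was not tested.

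Among 51 transcription factors of myeloid cells, 22 (43.1%) were higher in microglia, 13 (25.5%) in macrophages and 16 did not pass the test. The shares over all genes were 29.6% and 21.5%. Cebpa, a factor that commits precursors to the myeloid lineage, read 957 and 1035 in microglia and 305 and 315 in macrophages, and Tcf4, better known from dendritic cells and neurons, 281 and 292 against 67.8 and 57.5. The factors higher in macrophages included Sfpi1, described above, and 3 further named genes. Irf7, the amplifier of interferon production, read 753 and 727 in macrophages and 50.1 and 47.3 in microglia (log2 difference 3.90 ± 0.30 SE). Klf4, a factor of monocyte differentiation, read 52.3 and 83.8 against 18.5 and 23.7, and Irf5, a factor of inflammatory macrophages, 623 and 599.7 against 394 and 402.

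Genes of the macrophage and monocyte lineage were the counterpart. Of 36 measured, 27 were higher in macrophages (75%, against 21.5% over all genes) and 7 in microglia, and the list median was 2.48 on the log2 scale. S100a4, a calcium-binding protein of motile cells, read 13130.0 and 13142 in macrophages and 25.4 and 29.7 in microglia (log2 difference 8.85 ± 0.16 SE, adjusted p = 2.7e-19, limma). Lgals3, the gene of galectin-3, read 36175 and 33730.0 against 2928 and 2610.1. Ahnak, a large scaffold protein of the cell cortex, read 995 and 962 against 17 and 16.9. Anxa1, an annexin that restrains inflammation, read 2569.6 and 2836 against 167 and 189. None of these genes was absent from the microglia, and the smallest of the 4 gaps was that of Lgals3, at 12.6-fold on the fitted scale. Vim, the intermediate filament vimentin, read 3131 and 3289.9 against 1081 and 1095, although it also marks neural precursors, whose genes were higher in the microglia cultures.

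Other members of the list had few or no reads in microglia. Ccr2, the receptor by which monocytes leave the marrow, read 56.8 and 63.6 in macrophages and 2.18 and 2.78 in microglia. Ly6c2, a part of the Ly6C antigen, read 15.8 and 17.1 against 1 in both microglia libraries. Chi3l3, the chitinase-like protein Ym1, read 47.4 and 52 against 1 in both. The 4 members of the list with the strongest difference towards microglia included genes that are not limited to monocytes. Lyz2, the lysozyme of macrophages, read 34325 and 31400.0 in microglia and 19813 and 19196 in macrophages; Lyz1 and Lyz2 are close copies, so the split of reads between them is uncertain. Fn1, the matrix protein fibronectin, read 183 and 216 against 66.7 and 53.9, Ms4a7, a membrane protein of brain-border and infiltrating macrophages, 1290.1 and 1245 against 585 and 748, and Fabp5, a fatty acid carrier, 986 and 941 against 598 and 560.5.

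MHC class II genes, whose products show peptides to CD4 T cells, were higher in macrophages, and the presenting chains were nearly without reads in microglia. Of 12 list genes, 10 (83.3%) were higher in macrophages and 1 (8.33%) in microglia, against 21.5% and 29.6% over all genes. H2-Aa, the alpha chain of I-A, read 584 and 640.1 in macrophages and 2.18 and 1 in microglia (adjusted p = 1.92e-14, limma). H2-Ab1, its beta chain, read 297 and 295 against 1 and 1.86, and H2-Eb1, the beta chain of I-E, 235 and 244 against 0.725 and 0.928. At 0.725 and 0.928 units a read, the microglial values of these 3 genes are those of no read or a few reads. Cd74, the invariant chain that guides class II through the cell, read 1576 and 1598 in macrophages and 16 and 18.6 in microglia (log2 difference 6.45 ± 0.40 SE). Ciita, the master regulator of class II genes, read 8.74 and 7.34 in macrophages and 1 in both microglia libraries; it is named after its values were seen. H2-DMa and H2-DMb1, which load peptides onto class II, kept clear reads in microglia, at 37 and 43.6 and at 58 and 54.3, against 127 and 119.9 and 171 and 161 in macrophages; they too were picked after their values were seen. The single member higher in microglia, Cd86, was a costimulatory ligand and not a class II gene. It read 42.8 and 49.2 in microglia and 13.1 and 17.1 in macrophages. Of the 10 members higher in macrophages, Cd40 and Cd80 are costimulatory molecules too, and Ciita is a regulator.

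The promoters of H2-Aa and H2-Eb1 are shown because the class II chains differed together and their control by shared boxes is textbook knowledge: an X box, bound by the RFX complex, and a Y box, bound by NF-Y, on which CIITA assembles. The sequences are the 250 bases before the start of transcription from RefSeq on build GRCm38.p6, which is not the build of the expression tables (mm9), and are written 5′ to 3′ in the direction of the gene. Capitals mark the Y box, searched as CTGATTGG on both strands.
H2-Aa, chr17:34287824-34288073, minus strand: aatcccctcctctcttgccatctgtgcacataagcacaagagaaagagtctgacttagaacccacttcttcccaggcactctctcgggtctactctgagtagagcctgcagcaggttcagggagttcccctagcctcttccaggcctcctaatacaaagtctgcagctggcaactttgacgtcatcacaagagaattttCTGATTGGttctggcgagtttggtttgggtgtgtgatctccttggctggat
H2-Eb1, chr17:34305617-34305866, plus strand: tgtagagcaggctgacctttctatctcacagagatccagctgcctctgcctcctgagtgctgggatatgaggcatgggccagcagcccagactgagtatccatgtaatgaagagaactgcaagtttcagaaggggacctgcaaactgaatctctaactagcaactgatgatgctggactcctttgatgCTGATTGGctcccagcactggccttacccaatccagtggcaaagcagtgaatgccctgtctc
The box began 51 bases before the start in H2-Aa and 62 in H2-Eb1. Of the 7 list genes with a window, 2 held this motif, H2-Aa and H2-Eb1, and of 9636 genes of the culture table with a window 6.31% did. A match of letters is a description and does not show that the site was used in these cells.

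Class I genes, which present peptides to CD8 T cells and are made by nearly every cell, were higher in macrophages by less. Of 18 measured, 13 (72.2%) were higher in macrophages, 0 in microglia and 5 did not pass the test, with a median of 0.85. The shares over all genes were 21.5% and 29.6%. B2m, the light chain shared by all class I molecules, read 7579 and 7689 against 4985 and 4925. H2-K1 read 2668 and 2727 against 1362 and 1293 and H2-D1 3561 and 3499.9 against 2084 and 1928; class I heavy chains are near-identical copies, so their single values are uncertain. Psmb8, a subunit of the immunoproteasome that cuts peptides for class I, read 906 and 945 against 292 and 240.2.

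Interferon-stimulated genes formed the list with the highest share of calls towards macrophages. Of 43 measured, 39 were higher in macrophages (90.7%, against 21.5% over all genes), 1 in microglia, and the list median was 2.27 on the log2 scale. Their summed signal made up 1.06 and 1.01% of the macrophage totals and 0.184 and 0.191% of the microglia totals. Ifitm3, a membrane protein that blocks virus entry, read 3246 and 3020.2 in macrophages and 71.4 and 75.9 in microglia (log2 difference 5.39 ± 0.22 SE). Ifi27l2a, which type I interferon induces, read 2553 and 2492 against 234 and 299.6. Ly6e, a membrane protein of the same response, read 2775 and 2434 against 269 and 252. Ly6a, the antigen Sca-1, read 409.8 and 395 against 0.725 and 1. Isg15, a ubiquitin-like protein added to others during virus infection, read 229 and 251 against 28.3 and 24.1, and Ifit1, which binds foreign RNA caps, 131 and 169.8 against 11.4 and 12.1; they and Rsad2, the antiviral enzyme viperin, at 357 and 334 against 26.1 and 15.8, are named after their values were seen. In all 7 the libraries of the cell types were separate, and the microglia retained reads except in Ly6a. Ifi27l1 was the member that went the other way, at 276 and 307 in microglia and 146 and 144 in macrophages. Oas1a and Oas1g, close copies, may share reads.

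Isg15, Ifit1 and Rsad2 promoters are shown with the core of the interferon-stimulated response element, the site through which type I interferon acts on its target genes, in capitals. The core was searched as GAAA, any 2 bases and GAAA again, on both strands, and overlapping matches are merged in the capitals; build, window and direction are those given for the class II genes.
Isg15, chr4:156200819-156201068, minus strand: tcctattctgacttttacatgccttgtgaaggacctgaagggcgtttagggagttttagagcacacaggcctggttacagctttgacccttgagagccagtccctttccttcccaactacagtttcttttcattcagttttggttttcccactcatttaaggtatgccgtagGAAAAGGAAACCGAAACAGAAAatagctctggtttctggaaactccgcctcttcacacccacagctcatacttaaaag
Ifit1, chr19:34640639-34640888, plus strand: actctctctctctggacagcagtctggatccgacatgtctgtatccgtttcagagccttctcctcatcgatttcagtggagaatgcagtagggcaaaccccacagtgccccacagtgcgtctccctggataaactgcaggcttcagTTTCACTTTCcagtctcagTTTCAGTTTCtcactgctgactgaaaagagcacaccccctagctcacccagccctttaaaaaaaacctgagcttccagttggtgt
Rsad2, chr12:26456453-26456702, minus strand: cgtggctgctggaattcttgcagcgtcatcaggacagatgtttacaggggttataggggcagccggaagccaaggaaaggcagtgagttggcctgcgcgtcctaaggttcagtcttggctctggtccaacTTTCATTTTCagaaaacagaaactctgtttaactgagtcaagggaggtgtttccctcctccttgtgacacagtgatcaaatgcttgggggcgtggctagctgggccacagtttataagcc
The core occurred 3 times in Isg15, 2 times in Ifit1 and 1 time in Rsad2. Of 30 list genes with a window 15 held it (50%), and 3.21% of the 9636 genes did.

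Chemokines, which call other leukocytes, were with few exceptions higher in macrophages: 16 of 19 measured (84.2%), against 3 (15.8%) higher in microglia. The shares over all genes were 21.5% and 29.6%. Ccl22, a ligand of the chemokine receptor Ccr4 of T cells, read 652 and 723 in macrophages and 1 in both microglia libraries. Ccl17, the other ligand of Ccr4, read 528 and 663 against 1 in both. Ccl6, a ligand of Ccr1, read 2458 and 2534 against 123 and 98.3 (log2 difference 4.49), and Ccl9, which acts on the same receptor, 2908 and 3021 against 158 and 152 (log2 difference 4.25). Ccl7, a ligand of Ccr2, read 294 and 367 against 0.725 and 4.64, and Cxcl3, which attracts neutrophils, 239 and 228 against 2.18 and 0.928. Ccl17, Ccl22 and the receptor Ccr7, at 57.9 and 63.6 in macrophages and 1 in both microglia libraries, are also markers of dendritic cells. On the dendritic cell list, 6 of 11 genes (54.5%, against 21.5% over all genes) were higher in macrophages: Ccl17, Ccl22, Ccr7, Bst2, Irf4 and Batf3. Tcf4 and Fscn1 were higher in microglia (18.2%, against 29.6% over all genes), and Zbtb46, H2-Ob and Xcr1 did not pass the test. Both lists hold Ccl17 and Ccl22, so this count is not independent of the chemokine calls. The dendritic cell list summed to 0.229 and 0.234% of the macrophage totals and 0.0703 and 0.0712% of the microglia totals. Its part in the chemokine difference was not tested. The 3 chemokines higher in microglia were Cxcl14, at 228 and 214 against 5.46 and 24.5, Cxcl16, at 591 and 563 against 295 and 272, and Ccl12, which had few reads in both, at 7.25 and 4.64 against 2.19 and 1. The call for Ccl12 (adjusted p = 0.0321, limma) was lost with a pseudocount of 8 or without macrophage library 2 or microglia library 1, and the difference turned to 0.04 with quantile normalization.

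Of 15 chemokine receptors, 7 (46.7%) were higher in macrophages, against 21.5% over all genes. Another 5 (33.3%) were higher in microglia, near the 29.6% over all genes. Beside Ccr2 and Ccr7, macrophages were higher in Cxcr4, which retains cells in the marrow, at 403 and 354 against 197 and 216, and in the C5a receptor C5ar1, at 858 and 1122 against 538 and 521. Microglia were higher in Cx3cr1, in Cmklr1, the chemerin receptor, at 85.6 and 119.7 against 21.9 and 28.1, in Cxcr5, at 12.3 and 11.1 against 1 and 1.22, and in the formyl peptide receptor Fpr1, at 37.7 and 19.5 against 12 and 9.79. The Fpr1 call was lost under 6 of the other settings, and 3 rather than 5 receptors were higher in microglia without macrophage library 1 or microglia library 1.

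Inflammatory cytokines were mostly higher in macrophages. Of 29 genes of cytokines and the NF-kB pathway, 19 (65.5%) were higher in macrophages and 4 (13.8%) in microglia, against 21.5% and 29.6% over all genes. Il1b, the secreted mediator of fever and inflammation, read 632 and 657 in macrophages and 114 and 78.8 in microglia, and its antagonist Il1rn 325 and 350.3 against 15.2 and 7.42. Il12b, a subunit shared by the T cell-directing cytokines IL-12 and IL-23, read 351 and 350.0 against 3.63 and 1.86 (adjusted p = 1.09e-12, limma). Tnfaip2, a gene induced by TNF, read 462 and 557 against 124 and 101. Macrophages were therefore higher in both an inflammatory cytokine and its natural antagonist. Saa3, an acute-phase apolipoprotein, was the strongest exception, at 492 and 460.1 in microglia and 35 and 53.9 in macrophages (log2 difference -3.42). Il18, at 54.4 and 56.6 against 15.3 and 25.7, and Relb, a subunit of NF-kB, at 117 and 113 against 66.7 and 68.5, were also higher in microglia. Nfkb2 read 97.9 and 90.9 against 51.4 and 73.4, a difference whose call was lost under the median of ratios, among others.

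Neutrophil genes moved with this group. Of 13 markers, 9 (69.2%) were higher in macrophages and 2 (15.4%) in microglia, against 21.5% and 29.6% over all genes. Their summed signal was 0.0559 and 0.0581% of the macrophage totals and 0.0422 and 0.041% of the microglia totals. S100a8, the calprotectin subunit of neutrophils and monocytes, read 156 and 191 in macrophages and 1 and 0.928 in microglia. S100a9, its partner, read 164 and 157 against 0.725 and 1. Ltf, lactoferrin of neutrophil granules, read 15.3 and 9.79 against 1 in both microglia libraries, and Ngp, another granule gene, 18.6 and 29.4 against 1 in both. Elane, neutrophil elastase, was slightly higher in microglia, at 567 and 544 against 456 and 450.2; these 4 were picked after their values were seen. Granule genes Camp, Ltf and Ngp were thus at 1 in both microglia libraries, whereas Elane had reads in all 4 libraries. Elane made up most of the list's summed signal in microglia, so the sums say little about the other markers. The part of neutrophil genes in the cytokine and S100 differences was not tested.

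Genes of the alternative, IL-4-like state of macrophages did not side with the microglia. Of 13 measured, 8 (61.5%) were higher in macrophages and 3 (23.1%) in microglia, against 21.5% and 29.6% over all genes. Mrc1, the mannose receptor CD206, read 298 and 262 in macrophages and 77.6 and 94.6 in microglia, and Folr2, a folate receptor of tissue macrophages, 857 and 905 against 71.9 and 73.3. Mgl2, a galactose-binding lectin, read 32.5 and 41.3 against 1 in both microglia libraries, and Tgm2, a transglutaminase, 358 and 311 against 106 and 135. Stab1, a scavenger receptor, stood apart with 1276 and 1249 in microglia and 569 and 574 in macrophages. The list of border macrophages, the cells of the meninges and vessel walls, was split as well. Of its 12 genes, 8 (66.7%) were higher in macrophages and 4 (33.3%) in microglia, the latter near the 29.6% over all genes.

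Complement genes differed by component. The 3 chains of C1q, which start the classical cascade and tag synapses and debris in the brain, were all higher in microglia but to unequal degrees. C1qa read 7118 and 6573 in microglia and 1021 and 1192 in macrophages (log2 difference -2.63 ± 0.07 SE), C1qb 3127 and 3058 against 1656 and 1493, and C1qc 3105 and 3164 against 2341 and 2308. Genes of the alternative pathway stood higher in macrophages: Cfp, the gene of properdin, read 1142 and 1212 in macrophages and 184 and 119.7 in microglia, and Cfb, factor B, 50.3 and 56.3 against 2.18 and 2.78. Itgax, the CD11c chain of complement receptor 4 and a marker of dendritic cells and activated microglia, read 218 and 186 against 21.8 and 14.8. In all, 6 of 15 complement genes (40%) were higher in macrophages and 5 (33.3%) in microglia, against 21.5% and 29.6% over all genes.

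Receptors for antibody and microbes were divided, and many did not pass the test. Of 11 Fc receptor genes, 6 (54.5%) were higher in macrophages and 3 (27.3%) in microglia, against 21.5% and 29.6% over all genes. Fcer1g, the common signalling chain, read 1939 and 2073 against 1289 and 1238, Fcgr1, the high-affinity IgG receptor, 269 and 245 against 149 and 163, and Sykb, the kinase Syk downstream of them, 503 and 461 against 105 and 122. Fcgr3, a low-affinity IgG receptor, read 1135 and 1021 against 863 and 888, a call that quantile normalization removed. The inhibitory receptor Fcgr2b went the other way, at 156 and 147 in microglia and 41.8 and 29.4 in macrophages, as did Lyn, a kinase of these receptors, at 323 and 332 against 239 and 259, a call lost under the median of ratios. Of 22 Toll-like receptor genes, 8 (36.4%, against 21.5% over all genes) were higher in macrophages and 2 (9.09%, against 29.6%) in microglia. The other 12 did not pass the test. Those higher in macrophages were 5 without macrophage library 2, without microglia library 2 or with totals without the neural list genes. Tlr4, the endotoxin receptor, read 72.1 and 125 in macrophages and 37.7 and 30.6 in microglia. Myd88, the adaptor of most of these receptors, read 181 and 201 against 92.8 and 91.8, and Unc93b1, which carries them to endosomes, 491 and 438 against 325 and 339. Tlr2, the lipoprotein receptor, read 217 and 149 in microglia and 90.7 and 74.7 in macrophages, and Ly86, which encodes the MD-1 partner of Cd180, 1920.1 and 1941 against 795 and 924.

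Scavenger receptors and receptors for dying cells separated into those of each culture. Of 27 lectins and scavenger receptors, 18 (66.7%) were higher in macrophages and 4 (14.8%) in microglia, against 21.5% and 29.6% over all genes. Cd36, which takes up oxidized lipoprotein, read 1753 and 1694 in macrophages and 832 and 842 in microglia, and Lgals1, galectin-1, 3374 and 3355 against 940.1 and 1016. Colec12, a scavenger receptor that binds amyloid, read 219 and 209 in microglia against 12 and 6.12, and Clec7a, the glucan receptor Dectin-1, 901 and 1028 against 363 and 404. Scarb2, a lysosomal membrane protein, read 276 and 327 against 136 and 142. Of 17 genes for the uptake of dying cells, 7 (41.2%) were higher in macrophages and 6 (35.3%) in microglia. The shares over all genes were 21.5% and 29.6%. Mertk, a receptor kinase, read 369.9 and 374 in microglia and 107 and 91.8 in macrophages. Gas6, its bridging ligand, read 981 and 1047 against 642 and 621. Cd300a, an inhibitory receptor for phosphatidylserine, read 519 and 507 in macrophages and 238 and 234 in microglia. Cd300lf, a relative of it, was higher in macrophages, at 327 and 294 against 13.8 and 9.28, as was Mfge8, a bridging ligand to integrins, at 336 and 321 against 74.7 and 70.5.

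Genes of lipid handling were divided by member. Apoe, the apolipoprotein that carries cholesterol between brain cells, read 62349 and 59742 in microglia and 2549.9 and 2152 in macrophages (log2 difference -4.70 ± 0.07 SE, adjusted p = 4.52e-21, limma). Apoc1, another apolipoprotein, read 264 and 292 in microglia and 1 in both macrophage libraries. Abca1, which exports cholesterol onto such particles, read 553 and 521 against 83.1 and 93. Alox5ap, the helper of leukotriene synthesis, was higher in macrophages, at 934 and 887 against 131 and 124. Pltp, the phospholipid transfer protein, read 3022 and 2887 against 1664 and 1734 in the same direction, and Npc2, which moves cholesterol out of lysosomes, 3552 and 3393 against 2246 and 2092. Of 30 genes of lipid handling, 11 (36.7%) were higher in macrophages and 11 (36.7%) in microglia, against 21.5% and 29.6% over all genes. Astrocytes and radial glia also make Apoe, and Fabp7, the fatty acid carrier of radial glia, read 903 and 1066 in microglia and 21.9 and 14.7 in macrophages. The neural list genes kept apart summed to 1.08 and 1.1% of the microglia totals against 0.144 and 0.14% of the macrophage totals; their part in the Apoe difference was not tested.

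Genes of sterol and fatty acid synthesis were higher in microglia nearly throughout. Of 28 measured, 21 were higher in microglia (75%, against 29.6% over all genes), 1 in macrophages, and the list median was -1.01. Sqle, the enzyme that commits squalene to sterols, read 231 and 203 in microglia and 65.6 and 72.2 in macrophages. Scd2, a desaturase, read 592 and 640.0 against 90.7 and 79.6, and Fads2, another, 156 and 184 against 36.1 and 31.8. The member higher in macrophages was Srebf1, the regulator of fatty acid synthesis, at 131 and 113 against 71.1 and 79.8, which lost its call without macrophage library 1. Neural cells make sterols too, and the part of neural genes in this difference was not tested.

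Lysosomal and damage-associated genes, a program known from microglia at plaques and lesions, were not confined to the microglia. Of 42 measured, 23 (54.8%) were higher in macrophages and 11 (26.2%) in microglia, against 21.5% and 29.6% over all genes. Those higher in microglia were 17 with quantile normalization. Gpnmb, a glycoprotein of lipid-loaded phagocytes, read 19727 and 17683 in macrophages and 5716 and 5711 in microglia, Grn, progranulin, 6029 and 5948 against 2078 and 2220.5, and Ctsl, a cathepsin, 3522 and 3876 against 1355 and 1384. Ctsd, another cathepsin, read 45148 and 46534 in microglia against 23732 and 22887, and Spp1, osteopontin, 9469 and 10693 against 3138 and 3312. Each culture was thus higher in some members of the program. Among 15 genes of iron and heme, 7 (46.7%) were higher in microglia and 3 (20%) in macrophages, against 29.6% and 21.5% over all genes. Trf, transferrin, read 1315 and 1438 in microglia against 180.3 and 165, Hmox1, the heme-degrading enzyme, 4505 and 4421 against 2554 and 2549, and Slc11a1, a metal exporter of the phagosome, 1016 and 965 against 523 and 453. Trf is also a gene of oligodendrocytes, whose list was higher in the microglia cultures. The biliverdin reductases, which finish heme breakdown, differed from each other: Blvrb read 696 and 707 in microglia and 363 and 349 in macrophages, and Blvra 237 and 227 against 460.1 and 465. Fth1, ferritin heavy chain, was higher in macrophages by 0.28 on the log2 scale, at 36944 and 34951 against 31037 and 28054, and Steap3, a ferrireductase, read 80.9 and 99.1 against 6.53 and 7.42.

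Growth factors and their receptors differed in both directions. The GM-CSF receptor chains were higher in macrophages: Csf2ra read 343 and 359.8 against 143 in both, Csf2rb 626 and 614 against 192 and 147 and its close copy Csf2rb2 572 and 488 against 197 and 218. Reads of the last pair may be exchanged between the copies. Inhba, which encodes activin A, a relative of TGFb, read 95.1 and 104 in macrophages and 1.45 and 1.86 in microglia. Flt1, a VEGF receptor, at 82 and 75.1 against 17.5 and 12.2, Pdgfb, at 276 and 230.0 against 68.9 and 124, and, by little, Igf1, at 710.2 and 692 against 543 and 621, were higher in microglia; the Igf1 call was lost under 5 other settings. Of all 24 members 10 (41.7%) were higher in macrophages and 12 (50%) in microglia, against 21.5% and 29.6% over all genes.

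Adhesion and matrix genes also differed member by member. Of 21 integrin and adhesion genes, 11 (52.4%) were higher in macrophages and 7 (33.3%) in microglia, against 21.5% and 29.6% over all genes. Itgb7, the gut-homing integrin chain, read 174 and 146 in macrophages and 1 in both microglia libraries, and Alcam 427 in both against 162 and 141. Itgb5, which pairs with the alpha v chain in the uptake of dying cells, read 796 and 766 in microglia against 355 and 239, and Itga6, a laminin receptor chain, 389.5 and 391 against 121 and 113. Itga9, an integrin chain, read 31.9 and 23.2 in microglia and Jam2, a junction protein of endothelium and glia, 22.5 and 27.8, and both were at 1 in both macrophage libraries. Of 30 matrix genes, 14 (46.7%) were higher in macrophages and 10 (33.3%) in microglia. Mmp12, the macrophage elastase, read 4799 and 5082 against 1047 and 1004, and Adam8, a sheddase, 2608 and 2559 against 1369.5 and 1441. F10, the coagulation factor, read 87.4 and 94.5 against 0.725 and 1. Timp3, a protease inhibitor, read 140.0 and 122 in microglia and 1 in both macrophage libraries.

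Of 17 purine receptor genes, by which microglia sense injured cells, 5 (29.4%) were higher in each culture, fewer in microglia without microglia library 1. The microglia share was near the 29.6% over all genes, beside 21.5% for macrophages. Beside P2ry12 and Gpr34, P2rx4, an ATP channel, was higher in microglia, at 532 and 487 against 398 and 394 (a call lost under the median of ratios and without microglia library 1), and so was Gpr183, an oxysterol receptor on the same list, at 50.1 and 63.1 against 19.7 and 20.8. P2ry6, the UDP receptor, was higher in macrophages, at 462 and 350.0 against 225 and 199, as were P2ry14, at 60.1 and 31.8 against 3.63 and 1, P2ry2, an ATP and UTP receptor, at 37.2 and 40.4 against 7.98 and 6.49, and the adenosine receptor Adora2a, at 16.4 and 12.2 against 3.63 and 1.86.

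Genes of cell division were higher in macrophages, which are known to divide under M-CSF. Of 50 measured, 42 were higher in macrophages (84.0%, against 21.5% over all genes) and 2 in microglia, with a median of 1.76. Mki67, the proliferation antigen, read 182 and 156 in macrophages and 50.3 and 32.2 in microglia (log2 difference 2.04 ± 0.27 SE). Mcm5, a part of the helicase that opens DNA for replication, read 316 and 329 against 24.7 and 30.6. Its partners Mcm3 and Mcm6 were higher in macrophages by 2.61 and 2.12 on the log2 scale. Ccnd1, the cyclin induced by growth factors, read 777 and 953 against 311 and 325. Its relative Ccnd2 was higher in microglia, at 285 and 264 against 114 and 127, as was Hmgb2, a chromatin protein, at 92.4 and 99.4 against 78.5 and 58.2, whose call was lost under 5 other settings. The summed list made up 0.612 and 0.610% of the macrophage totals and 0.298 and 0.303% of the microglia totals.

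Glycolysis genes were higher in macrophages as well, in 16 of 27 (59.3%), against 5 (18.5%) in microglia. The shares over all genes were 21.5% and 29.6%. Tpi1, an enzyme of the pathway, read 928 and 876 against 353 and 347, Ldha, which makes lactate, 1199 and 1342 against 628 and 572, and Pkm2, the pyruvate kinase gene, 3585 and 3543 against 2399.9 and 2309.7. Pfkp was higher in macrophages, at 234 and 277 against 54.4 and 56.6, and the muscle-type Pfkm in microglia, at 53 and 43.6 against 7.65 and 15.9; both encode phosphofructokinase. Pfkfb3, a regulator of that step, read 119 and 140.1 in microglia and 30.6 and 56.3 in macrophages. Genes known to respond to hypoxia went both ways: Vegfa, Pdk1 and Slc16a3 were higher in macrophages by 0.57, 0.83 and 1.42 on the log2 scale, and Ndrg1 read 98.4 and 111 in macrophages against 8.7 and 9.28. These 4 were picked after their values were seen. Bnip3 and Egln3 were higher in microglia, at 35.8 and 34.5 for the former against 16.3 and 11.2 and at 28.3 and 22.3 for the latter against 7.65 and 1.22.

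Immediate early and stress genes, which can rise while cells are handled, gave calls in both directions. Of 22 immediate early genes, 10 (45.5%, against 21.5% over all genes) were higher in macrophages and 3 (13.6%, against 29.6%) in microglia. The other 9 did not pass the test. Egr1, the most familiar of them, was higher in microglia, at 101 and 153 against 6.56 and 19.6, as was Junb, at 491 and 452 against 325 and 304, and Ier2, at 87 and 77 against 49.2 and 57.5, whose call was lost under the median of ratios and without macrophage library 1 or microglia library 1. Its relative Jun read 289 and 341 in macrophages and 173 and 176 in microglia. Ier3, Ier5 and Dusp5, a phosphatase that restrains ERK, were higher in macrophages by 1.54, 0.68 and 2.26 on the log2 scale. Of 24 heat shock and stress genes, 9 (37.5%, against 21.5% over all genes) were higher in macrophages and 6 (25%, against 29.6%) in microglia. The latter were 10 with quantile normalization, and the former 5 with totals without the neural list genes. Hspa5, the chaperone of the endoplasmic reticulum, read 2554 and 2560.4 in macrophages against 1428 and 1501, and Xbp1, a factor of the same organelle's stress response, 283 and 282 against 171 and 186. Slc7a11, the cystine importer, read 36.1 and 47.7 against 7.25 and 8.35 and Dnajb1, a co-chaperone, 120.2 and 116 against 55.9 and 62.1. Dnaja1, another co-chaperone, read 104 and 103 in microglia and 42.1 and 40.4 in macrophages, and Sqstm1, an autophagy receptor, 1287 and 1206 against 806 and 863. Atf4 read 1009 and 1038 against 863 and 858, a call that the median of ratios removed. Ddit4, a stress inhibitor of mTOR, read 39.2 and 61.2 in microglia against 6.56 and 12.2.

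Some of the widest gaps fell on genes of no list. In macrophages, Npy, the neuropeptide Y gene, read 1669 and 1461 against 2.9 and 3.71 in microglia. Napsa, an aspartic protease, read 190.2 and 239 against 1.45 and 1, and 1600029D21Rik, now named Plet1, 170.5 and 177 against 1 in both microglia libraries. In microglia, 14 of the 15 genes with the widest gap were on no list once the neural list genes had been set aside, and several of them are known from neurons and glia. Ptn, the growth factor pleiotrophin, read 856 and 885, Nog, the BMP antagonist noggin, 463 and 442, and Cxxc5, a nuclear protein, 416 and 426. Gpm6a, a membrane protein of neurons, read 321 and 332, Gria2, a glutamate receptor subunit, 233 and 228, and Slc1a1, a glutamate transporter, 259.7 and 253. Both macrophage libraries stood at 1 for these 6 genes. They also did for Fxyd6, a regulator of the sodium pump, at 359.8 and 365 in microglia, for Fbxo2, a ubiquitin ligase part of neurons, at 215 and 218, and for Klhl13, at 243 and 219. The same held for Ddr1, a collagen receptor, at 204 and 262, for Igfbp3, a carrier of insulin-like growth factors, at 187 and 205, and for D0H4S114 (now Nrep), at 197 and 209. Serpine2, a protease inhibitor, read 572 and 595 in microglia and 1 and 3.67 in macrophages, and Nrxn2, a synaptic adhesion protein, 243 and 278 against 1 and 1.22.

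Listed genes of neural precursors and their progeny were kept apart from the myeloid comparison. On the 3 neural lists, 53 of 58 genes of precursors and new neurons, 30 of 36 of radial glia and astrocytes and 18 of 22 of the oligodendrocyte lineage were higher in the microglia cultures, against 29.6% over all genes. Without the members that also stand on a myeloid list, 111 genes remained, of which 99 were higher in the microglia cultures, 4 in macrophages and 8 did not pass the test. In 67 of the 111, both macrophage libraries were at 1. Together they made up 1.08 and 1.1% of the signal in the microglia libraries and 0.144 and 0.14% in the macrophage libraries. Other neural genes, such as Ptn and Gria2, are on no list and stayed in the counts over all genes. Without the 111, genes also found in the table of sorted cord cells were higher in macrophages in 27.1% and in microglia in 23.2%. For genes not found there, the shares were 12.3% and 39.0%.

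Single neural genes had many reads in the microglia libraries. Ncan, the gene of the brain matrix protein neurocan, read 1750.3 and 2056 there and 1 in both macrophage libraries (adjusted p = 7.08e-21, limma). Nnat, an imprinted gene of developing neurons, read 1174 and 1169, Olig1, a transcription factor of oligodendrocyte precursors, 541 and 572, and Sparcl1, a matrix protein of astrocytes, 312 and 296, and all of them were at 1 in both macrophage libraries. The cell types were separate in each of these 4 genes. Gpm6b, a membrane protein of neural cells, read 553 and 625 against 1 and 3.67, Mtap2, the dendrite protein MAP2, 391 and 374 against 1 and 1.22, and Rtn1 775 and 716 against 12 and 1.22. Dpysl3, a gene of growing axons, read 264 and 184, Nsg2 312 and 268 and Stmn4, a neuronal stathmin, 241 and 263, and all 3 were at 1 in both macrophage libraries. Tubb2b, a tubulin of young neurons, had reads in macrophages too, at 30.5 and 43.7 against 1424 and 1563. Sox4, a transcription factor of differentiating precursors, read 579 and 531 in microglia and 5.46 and 9.79 in macrophages. In all, 4 members ran the other way. L1cam, an adhesion molecule of axons that some leukocytes also carry, read 60.1 and 62.4 in macrophages against 10.9 and 5.57, and Lfng, a modifier of Notch, 162 and 220.3 against 81.2 and 65.4. Cnp, a myelin enzyme, read 197 and 186 against 116 and 93.7, and Sirt2, a deacetylase, 433 and 349 against 318 and 291. The Sirt2 call was lost under 5 other settings, among them without macrophage library 1 and without microglia library 2.

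Other cell types were read by their marker lists alone, beside 21.5% higher in macrophages and 29.6% higher in microglia over all genes. These lists are short, so their counts are not read as results about a cell type. Of 16 genes of fibroblasts and meninges, 9 were higher in microglia and 1 in macrophages, but the summed signal was 0.0205 and 0.0221% of the microglia totals and 0.0231 and 0.0228% of the macrophage totals; quantile normalization left 5 against 2. Of 7 genes of vessels, 4 (57.1%) were higher in macrophages and 3 (42.9%) in microglia. Of 7 osteoclast genes, 5 (71.4%) were higher in macrophages, and of 5 genes of mast cells and basophils, 3 (60%) were. The mast cell and basophil count was 1 with a mean of at least 10. Among 5 lymphocyte genes, 2 were higher in macrophages and none in microglia; those were Ccl5 and Il7r, which myeloid cells can make, and Cd79b, Klrb1c and Thy1 did not pass the test. Ependymal and erythroid lists had 3 genes each, of which 2 (66.7%) and 1 (33.3%) were higher in microglia.

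The remaining culture libraries gave a second reading of the same difference, in cells under TGFb1 for 1 to 20 h, fitted together with those of 0 h. Of all genes, 9242 (74.9%) were called there, 3866 (31.3%) higher in macrophages and 5376 (43.6%) higher in microglia. Of the 2648 genes higher in macrophages at 0 h, 2485 (93.8%) were called in the same direction under TGFb1 and 15 in the opposite one. Of the 3653 higher in microglia, 3438 (94.1%) were called in the same direction and 22 in the opposite one. The libraries are separate, but the labels do not say whether the cells came from the same dishes or mice. Of the 228 genes named by the rule, 176 had separate cell types at both times with the same sign, and none had separate cell types with opposite signs.

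The levels of single genes show the later libraries. S100a4 ranged over 10676, 12808 and 14067 (lowest, median and highest of 9 macrophage libraries) against 18.5, 27.1 and 36.3 in the 10 microglia libraries. H2-Aa ranged over 434, 576 and 658 against 0.882, 1 and 2.65, and Il1b over 621, 697 and 773 against 57.2, 76.3 and 98.7. Apoe ranged over 1716, 2627 and 2971 in macrophages and 59690.0, 64497 and 67260.0 in microglia, and Sall1 was at 1 in all 9 macrophage libraries and ranged over 25.2, 50.2 and 65 in microglia. The cell types did not overlap in these 5 genes. Ncan was at 1 in all 9 macrophage libraries and ranged over 1979, 2341 and 2974 in microglia, and the neural list genes kept apart stayed at 1.06 to 1.22% of the microglia totals and 0.137 to 0.157% of the macrophage totals.

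Other genes had other values in the later libraries. Cx3cr1 read 23.6, 218 and 376 in macrophages (lowest, median and highest), against 27.9 and 31.8 at 0 h, and 1804, 2357 and 2620.0 in microglia. Tmem119 ranged over 1, 4.68 and 17.8 in macrophages, where it had been at 1, and over 23.9, 48.7 and 80.7 in microglia; P2ry12 over 1, 5.85 and 18.2 and 9.46, 18.1 and 33.7, and the ranges of P2ry12 overlapped. Id1 did not pass the test (adjusted p = 0.327, limma), with 149, 484 and 539 in macrophages and 294, 339.8 and 397 in microglia. Smad7 ranged over 28.8, 48.6 and 93.3 in macrophages against 86, 124 and 146 in microglia, which overlap where they did not at 0 h. Ccl12, higher in microglia at 0 h, ranged over 3.89, 14.3 and 23.9 in macrophages and 0.882, 3.37 and 6.75 in microglia and was higher in macrophages (adjusted p = 2.83e-06, limma). Itgam, which had not differed at 0 h, ranged over 294, 348 and 479 in macrophages and 247, 285 and 319 in microglia (adjusted p = 5.33e-07, limma). Whether the cell-type difference itself changed between 0 h and the later times was not tested.

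**Figure D4:**
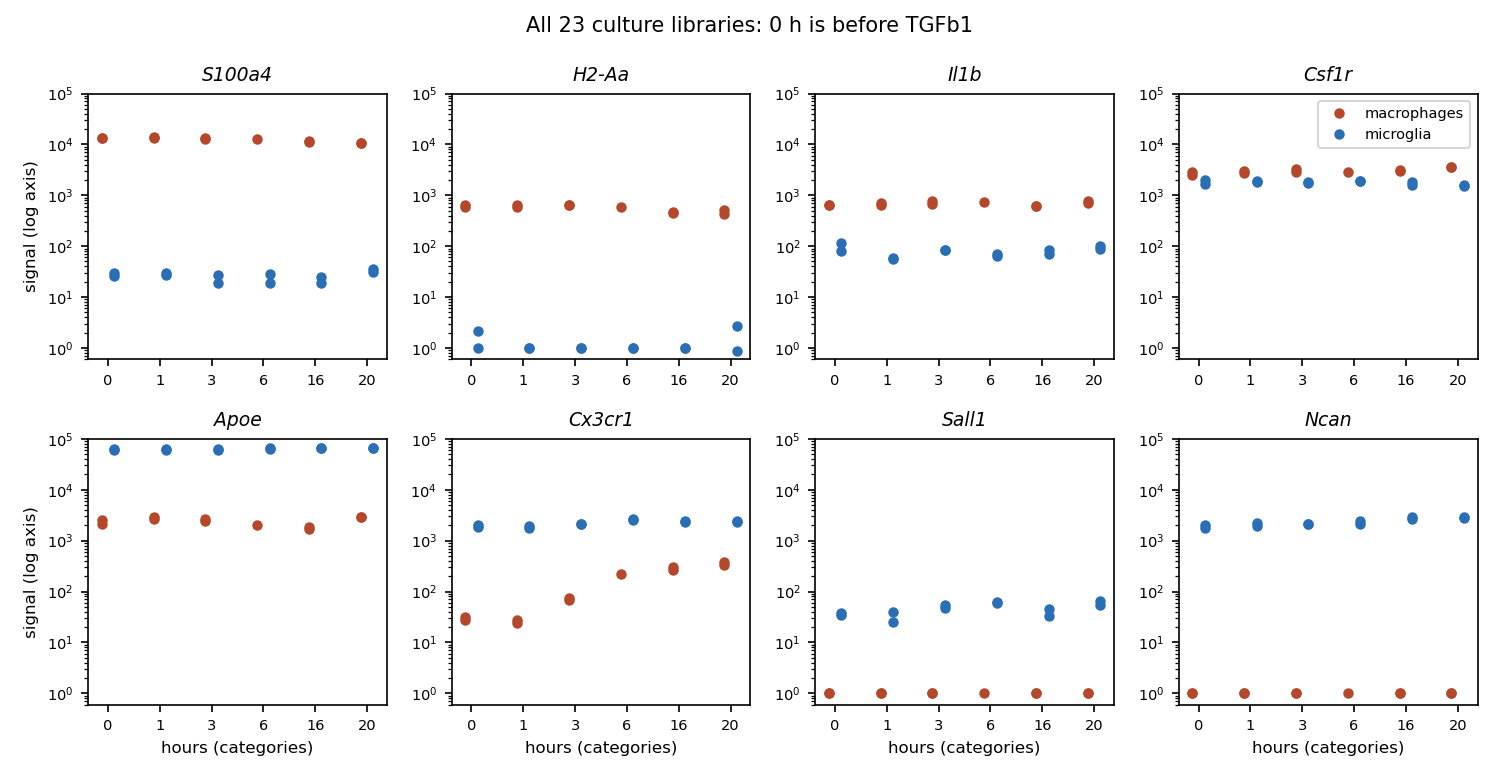
Signal (y axis, log) of 8 genes in each of the 23 culture libraries by hours in culture with TGFb1 (x axis, categories; 0 is before it; 2 libraries per point in time, 1 for macrophages at 6 h). S100a4, H2-Aa, Il1b, Apoe, Sall1 and Ncan have separate cell types at every time, and Cx3cr1 of macrophages stands higher from 3 h on than at 0 and 1 h.

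**Figure D5:**
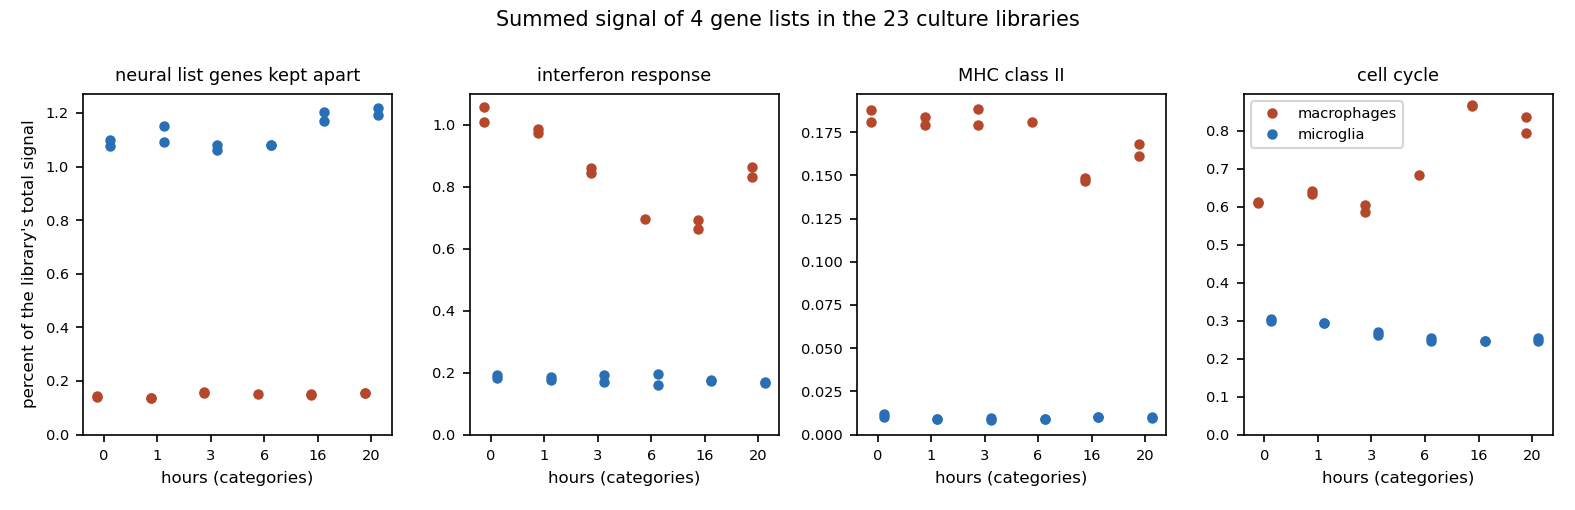
Percent of each library's total signal (y axis, from 0) that falls on 4 gene lists in the 23 culture libraries, by hours (x axis, categories). The neural list genes kept apart lie between 1.06 and 1.22% in all microglia libraries and at most 0.157% in macrophages, and the other 3 lists lie higher in every macrophage library than in any microglia library.

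The injured cord gave another set of cells, sorted monocytes and microglia at 16 h to day 7 (2 libraries a cell type and time), in a table of 8218 genes that was scaled separately. There, 622 genes (7.57%) differed, 326 (3.97%) higher in monocytes and 296 (3.60%) higher in microglia. With libraries rescaled by the median of ratios, 163 were higher in monocytes and 402 in microglia, so the split between directions depends on the scaling, and leaving out 1 library at a time gave 381 to 837 genes. Of the genes higher in macrophages at 0 h, 2089 (78.9%) were in the cord table, and of those higher in microglia 1804 (49.4%). Of the 111 neural list genes kept apart, 26 were in the cord table. Among the 2089, 156 were higher in monocytes of the cord and 98 higher in its microglia, and among the 1804, 62 were higher in the cord's microglia and 75 in its monocytes. Over all 7713 genes of the culture table found there, 318 were higher in the cord's monocytes and 245 in its microglia. Genes higher in cultured macrophages and called in the cord leaned to monocytes (156 and 98), as did those higher in cultured microglia (75 and 62). All shared genes leaned the same way (318 and 245), so neither split is read as a result about the cultured genes.

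The list counts in the cord stand beside 3.97% higher in monocytes and 3.60% higher in microglia over all its genes. Of the 35 macrophage and monocyte lineage genes in the cord table, 20 were higher in monocytes and 4 in microglia. Among these 35, 15 were higher both in cultured macrophages and in monocytes. In the opposite sense, 3 were higher in cultured macrophages but in the cord's microglia, and 5 were higher in cultured microglia but in the cord's monocytes. Of the 26 microglia identity genes there, 9 were higher in microglia and 1 in monocytes, and 8 were higher in both kinds of microglia. Of 42 interferon genes, 4 were higher in monocytes and 1 in microglia. Of 15 chemokines, 3 were higher in monocytes and 2 in microglia. Of 26 cytokine and NF-kB genes, 1 was higher in monocytes and 4 in microglia, and all 4 were higher in macrophages in culture. Of 12 neutrophil markers in the cord table, 11 were higher in the libraries labelled microglia, whereas 9 of 13 were higher in macrophages in culture; the part of these genes in the cord's counts was not tested. Cell cycle genes, higher in cultured macrophages in 42 of 50, were higher in the cord's monocytes in 0 of 43 and in its microglia in 2. Both cord counts are near the shares over all cord genes and are not read as a contrast to the culture.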

How the data were processed

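RNA was extracted with miRNeasy, per the labels' protocols, and reads were aligned with TopHat to mouse build mm9, per the submitters' processing notes; the sources used here do not give the aligner's version, the counting tool or the way values were scaled. The culture and cord tables deposited by the authors hold a scaled signal per gene and not raw counts, so no count model was used. The 2 tables were scaled separately and levels were not compared between them. A row without a gene name, at most 0.0140% of a culture library's signal, was left out. Of 12335 gene names, 11141 matched a current RefSeq symbol and 1099 an older one. In 33 sets, 103 genes had the same values in all 23 culture libraries, so their reads cannot be told apart.

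Libraries were grouped by their labels. Genes that reached 1 in 2 libraries of a table, which all did, were fitted with limma 3.58.1 in R 4.3.3 on log2(signal + 1), with 1 coefficient per cell type and time over all 23 libraries, a mean-variance trend and robust estimation. A fold change on this scale understates the change of genes with few reads. The contrasts were macrophages minus microglia at 0 h and averaged over 1 to 20 h, and, in a second fit of the 21 cord libraries, monocytes minus microglia averaged over 16 h to day 7. Tests were two-sided with Benjamini-Hochberg adjustment over all genes of a table, with calls at an adjusted p under 0.05. The fit was tested on simulated data. Of the libraries at 0 h, only 1 pair per letter exists, and the deviations of same-letter libraries from their group means had a Pearson's r across genes of 0.00699, so the letters were not taken as pairing.

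The 41 gene lists and the genes under comparison were chosen with earlier results of these data known. Named genes were the 4 with the smallest p per list and direction, the 15 with the widest log2 difference per direction (mean of at least 20 in the higher group, libraries separate, no neural list gene), 10 neural genes by each of those measures and 21 genes in any case. Camp, S100a9, Elane, Ltf, Ngp, Ciita, H2-DMa, H2-DMb1, Isg15, Ifit1, Rsad2, Oas1a, Oas1g, Ccl5, Il7r, Cd79b, Klrb1c, Thy1, Tgfb1, Eng, Tgfbi, Thbs1, Id2, Vegfa, Ndrg1, Pdk1, Slc16a3 and the identity genes that did not pass the test were added after their values were seen. The same holds for Bst2, Irf4, Batf3, Fscn1, Zbtb46, H2-Ob, Xcr1, Cd40 and Cd80. Promoter sequences are RefSeq's, build GRCm38.p6, matched by symbol. The alternatives tried were pseudocounts of 8 and 0.25, a mean of at least 10, other scalings, another variance model, array weights, fewer libraries and a replicate block. Some genes that the naming rule picks are not reported here.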

Additional observations from a re-analysis of the deposited data

How the results depend on the processing

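At 0 h the number of genes called stayed within 1.5 times of 6301 under every alternative run, from 5117 to 5538 with 1 library left out and up to 6478 with totals rescaled without the neural list genes. The share of calls higher in macrophages was 42.0% as deposited. It was 50.4% with the median of ratios (3170 against 3122 genes) or quantile normalization (3115 against 3061). With totals without neural list genes it was 33.7% (2182 against 4296). Those totals leave out every member of the neural lists, Apoe included, and are set equal. With 1 library left out, 2174 to 2307 genes were higher in macrophages and 2943 to 3236 in microglia. Under TGFb1 the ranges were 9005 to 9219 in all, 3771 to 3870 and 5217 to 5386. The replicate block gave 6268 calls at 0 h, 9214 under TGFb1 and 736 in the cord, all within 1.5 times of the fit without it, and changed the call of none of the 228 named genes.

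Of the named genes, 211 kept direction and call in every one of 15 settings that gave a value and 17 did not; Adora2a, Ccl12, Cxcr5 and Ly6c2 have none at a mean of at least 10. Quantile normalization turned the log2 difference to 0.040 for Ccl12, -0.079 for Emr1, -0.13 for Itgam and -0.037 for Psap. For Itgam it ran from -0.093 to 0.22 with 1 library left out, the lowest without microglia library 2, and was -0.089 with totals without the neural list genes. In the cord, 163 genes were higher in monocytes with the median of ratios. With 1 cord library left out, 381 to 837 genes were called, 185 to 419 higher in monocytes and 189 to 436 in microglia. Fewer were higher in monocytes without monocyte library 1 or 2 of 16 h (198 and 197), of day 1 (202 and 207), of day 3 (205 and 185) or without library 2 of day 7 (215). The cause was not tested. Each group at 0 h has 2 libraries, and leaving 1 out assumes that the other varies like the remaining groups. At 0.725 to 1.22 signal units a read, differences between genes near 1 were not detectable at this depth.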
